A study of Mus musculus with 24 samples.

Results

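The genes described here are those that drive or serve cell division: the Mcm helicase subunits, cyclins of the A, B, D and E families, genes named Cdc, the cyclin-dependent kinases Cdk1 to Cdk9, the Cdca and Cenp genes, Aurora kinases A and B, Bub1, Bub1b and the E2f factors. They were chosen by symbol alone, with the brightest probe set that lists a single gene standing for each, which gave 86 of the 18193 genes measured. All 86 symbols were matched in the RefSeq mouse gene table. The study asked how ternary complex factors, which bind DNA with Srf downstream of ERK signalling, act in the positive selection of T cells.

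RNA was profiled on 24 Affymetrix Mouse430_2 arrays from CD4+ CD8+ (double-positive) thymocytes of 12 male mice, strain label Black 6J, aged 8 weeks. There were 3 mice each of wild type (WT), of a Sap-1 knockout (SapKO, the gene Elk4), of an Elk-1 knockout (ElkKO, the gene Elk1) and of the combined knockout (ElkSapKO). Cells were sorted with antibodies to CD4 and CD8, rested for 2 h in medium with serum, then spun onto plates coated with anti-CD3 or left uncoated (untreated) and kept there for 30 min. The cells of each mouse therefore gave an untreated and an anti-CD3 array, so that each of the 8 groups held 3 arrays. The labels describe neither the knockout alleles nor the cells in which they act, nor the controls' relation to the knockouts.

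The deleted genes were examined first. Elk4 lay at a log2 signal of 10.25 to 10.82 in the WT arrays and 6.88 to 7.59 in the SapKO arrays, and it was 3.20 below WT on the log2 scale in ElkSapKO mice (difference −3.20 ± 0.21 SE, limma adjusted p = 2.9e-06). Elk1 was close to background in all genotypes, at 4.69 to 5.23 in WT and 4.03 to 4.69 in ElkKO, so its probe set says little about the ElkKO label. The 8 measured markers of double-positive thymocytes averaged 10.53 to 11.23 per array. Markers of B cells (4.61 to 5.53), granulocytes (4.06 to 5.19) and erythroid cells (3.98 to 5.08) averaged near background per array. The B cell means were 5.065 to 5.439 in SapKO against 4.683 to 4.97 in WT, and the B cell marker Cd79b lay at 7.17 to 8.15. Of 8 macrophage and dendritic cell markers 3 averaged above 5.07, the background limit defined below. So did 2 of 8 epithelial and stromal markers and 7 of 7 mature single-positive T cell markers.

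Array measures that follow genotype bear on the comparisons below. The difference between the 3′ and 5′ probe sets of Actb, a measure of RNA integrity, ranged over arrays from 0.15 to 0.36 for WT and from 0.17 to 0.24 for SapKO, and was higher in ElkKO (0.38 to 0.65) and ElkSapKO (0.55 to 1.05, log2). The dap control transcript, which is added to RNA during labelling, was low in 8 arrays (6.00 to 6.60) and high in the other 16 (8.81 to 9.66); the low arrays came from mice 1 and 2 of WT and from SapKO mice 1 and 3. All ElkKO and ElkSapKO arrays were in the high set, where WT mouse 3 was the sole WT animal. One array was an outlier, that of untreated cells from ElkSapKO mouse 2: its deviations from the median array had an interquartile range of 0.83, against 0.18 to 0.36 in the other 23. Several results that rest on it are given with and without it. Others, among them the untreated ElkSapKO differences of E2f4, E2f5 and Cenpt, are given only with it.

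Before a cell copies its DNA, origin recognition proteins, Cdc6 and Cdt1 load the Mcm helicase on origins, and Cdc7, Cdc45 and Mcm10 help to fire them. D and E cyclins with Cdk4, Cdk6 and Cdk2 start this programme by releasing E2f factors from pocket proteins, whereas A and B cyclins with Cdk1, the Aurora kinases, Bub kinases and centromere proteins carry the cell through mitosis, which Cdc20 and the anaphase-promoting complex end. In the thymus, double-positive cells arise in a burst of division from less mature precursors and then largely stop dividing, so bulk RNA of the sorted population holds dividing blasts and resting cells together. In bulk RNA, fewer dividing cells and less RNA per dividing cell cannot be told apart.

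Most of these genes were expressed. Of the 86, 82 (95.3%) had a mean log2 signal above 5.07, the highest value of Xist in these male cells and taken here as background, against 55.6% of all genes. Their median signal was 8.53, and that of all genes was 5.56. The 4 members below that limit were cyclins Ccna1, Ccnb3 and Ccnd1 and the gene Cdc20b. Signals of different probe sets are not compared further, because their probes differ in brightness.

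Group means of the bright members are given as ranges. Mcm7, a subunit of the replicative helicase, had group means of 11.92 to 12.24, Mcm6 of 11.10 to 11.41 and Mcm5 of 10.62 to 10.93 over the 8 groups. Among the cyclins, Ccnd3, the main D cyclin of developing thymocytes, had group means of 10.44 to 11.45, and Ccna2, the cyclin of S phase, of 10.32 to 10.87. Cdc5l, a splicing factor that shares the name pattern but not the function, had group means of 10.37 to 10.56. Cenpa, the histone of centromeres, had means of 9.57 to 10.07, and E2f2, an activating E2f, of 9.60 to 10.04. Cdc20b, the 1 member given no role class here, had means of 3.26 to 3.56, all under the background limit.

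Promoter windows of 300 bases around annotated starts, most of each lying upstream, were held by RefSeq (GRCm38.p6) tables for 73 of the 86 genes, 85 windows in all. E2f binding letters (TTTCCCGC, TTTGGCGC, TTTCGCGC or TTTGCCGC on either strand) stood in 20.0% of these windows, in 46.2% of those of the licensing genes and in 2.3% of the 32851 windows of all genes. The letters of the cell cycle homology region, CHR (TTTGAA or TTTAAA on either strand), stood in 38.8% of the members' windows, in 66.7% of those of the mitotic kinase and Cdca genes and in 27.6% of all windows. CCAAT on either strand stood in 51 of the 85 members' windows and 37.4% of all, and CCGGAAGT, letters bound by Ets proteins such as Elk-1 and Sap-1 and chosen after the values were seen, in 9.4% and 3.9%. These are matches of letters only.

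A set of 4 windows is printed 5′ to 3′ on the gene's strand, with the matched letters in capitals. Cenpt is the gene whose level differed from WT in both Elk-1-deficient genotypes, and its window has 2 CHR matches and none of the E2f letters. Cdca7 gave the smallest p of all members in the averaged anti-CD3 response, Cenpb differed in ElkSapKO, and Mcm6 shows the pattern of the licensing genes, with 3 E2f matches of which 2 overlap. The windows are chr8:105851959-105852258 on the minus strand, chr2:72475969-72476268 on the plus strand, chr2:131180018-131180317 on the minus strand and chr1:128359656-128359955 on the minus strand, in the order of the lines.
Cenpt: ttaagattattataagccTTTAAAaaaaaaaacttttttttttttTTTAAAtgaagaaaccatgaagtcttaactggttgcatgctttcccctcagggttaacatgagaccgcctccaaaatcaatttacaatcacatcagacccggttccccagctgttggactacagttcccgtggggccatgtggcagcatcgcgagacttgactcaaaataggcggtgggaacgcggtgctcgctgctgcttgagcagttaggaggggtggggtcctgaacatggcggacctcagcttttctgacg
Cdca7: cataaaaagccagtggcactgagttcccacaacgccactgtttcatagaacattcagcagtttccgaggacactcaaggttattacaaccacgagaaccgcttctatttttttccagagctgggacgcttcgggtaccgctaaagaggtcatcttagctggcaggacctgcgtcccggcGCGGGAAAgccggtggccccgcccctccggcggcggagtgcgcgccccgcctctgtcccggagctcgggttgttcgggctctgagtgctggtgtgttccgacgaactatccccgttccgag
Cenpb: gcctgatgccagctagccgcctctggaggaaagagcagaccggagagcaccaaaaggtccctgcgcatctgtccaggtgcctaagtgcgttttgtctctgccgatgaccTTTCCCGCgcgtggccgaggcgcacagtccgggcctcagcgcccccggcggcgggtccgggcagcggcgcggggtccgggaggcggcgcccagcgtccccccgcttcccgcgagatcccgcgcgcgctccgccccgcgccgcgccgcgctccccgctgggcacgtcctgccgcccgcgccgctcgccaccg
Mcm6: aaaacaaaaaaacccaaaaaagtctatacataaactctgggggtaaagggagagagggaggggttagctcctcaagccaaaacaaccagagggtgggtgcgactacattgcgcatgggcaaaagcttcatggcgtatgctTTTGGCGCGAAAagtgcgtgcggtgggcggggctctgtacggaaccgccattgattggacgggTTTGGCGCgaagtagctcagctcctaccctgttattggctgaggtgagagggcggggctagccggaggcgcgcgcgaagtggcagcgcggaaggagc

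**Figure D1:**
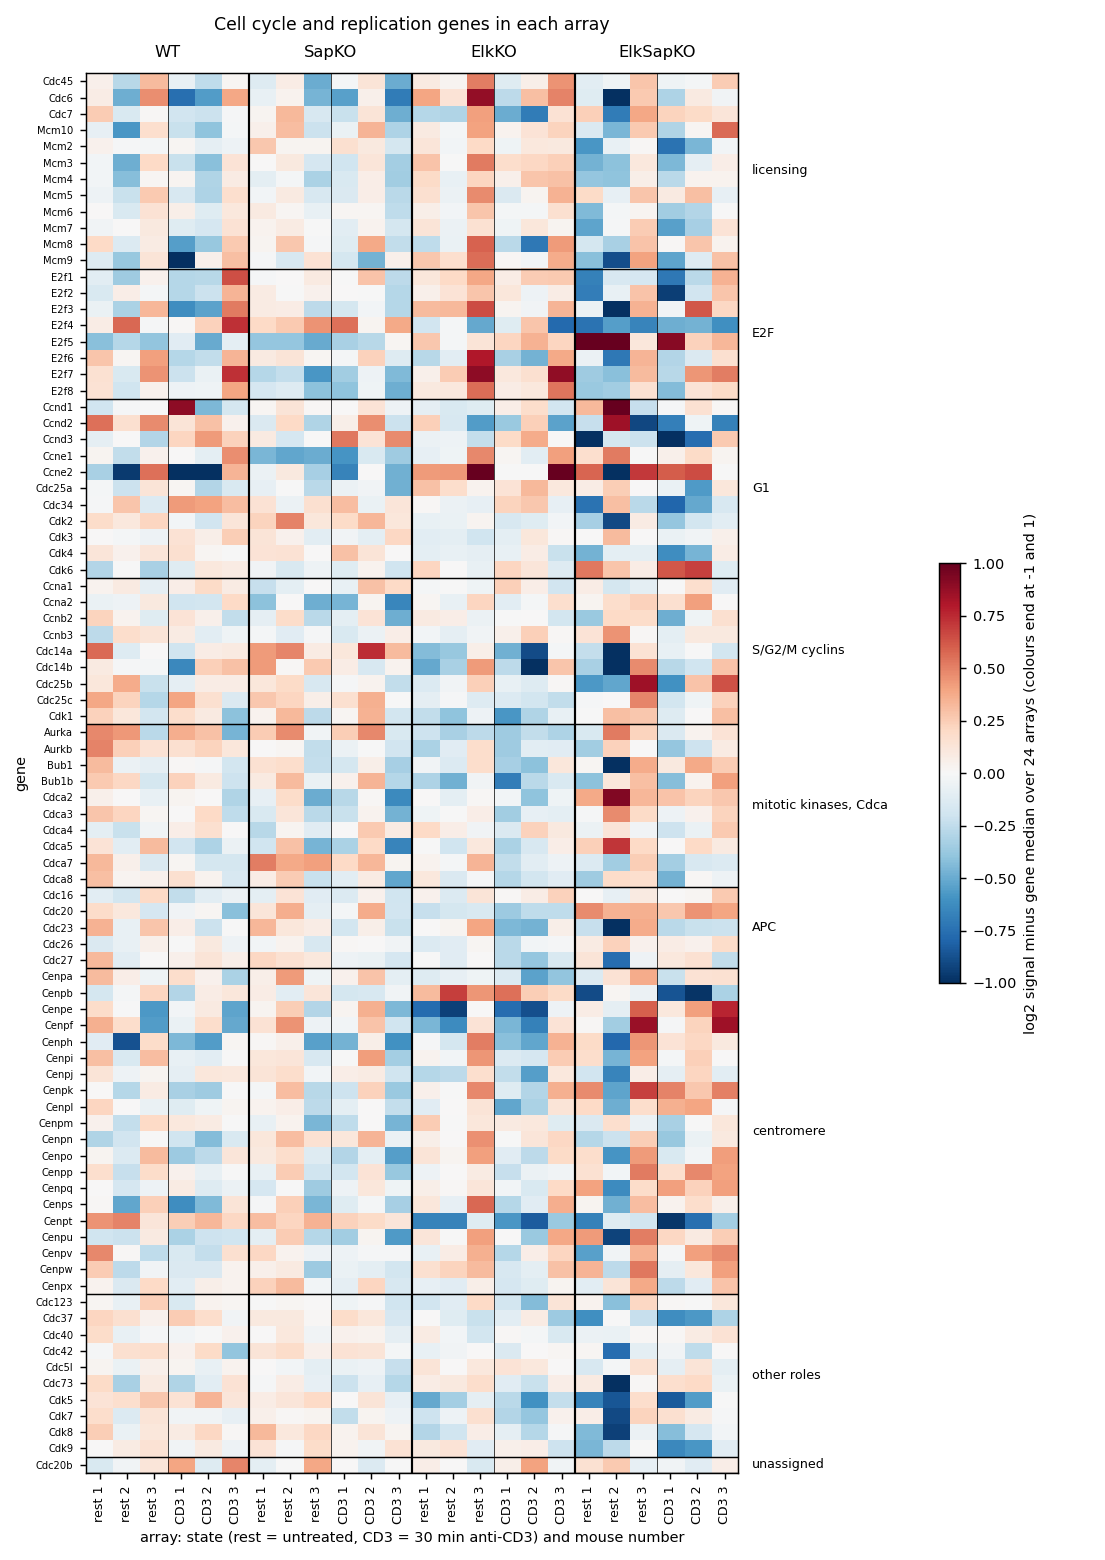
Log2 signal of each of the 86 genes (rows, by role class) in each of the 24 arrays (columns, by genotype, state and mouse), as the deviation from that gene's median over all arrays; colours end at −1 and 1. Neighbouring untreated and anti-CD3 blocks look alike, Cenpt is low across ElkKO and ElkSapKO, and the untreated array of ElkSapKO mouse 2 has the deepest colours.

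The first question is whether 30 min of receptor signalling moved these genes. None of the 86 rose or fell in any genotype by the limma test (Benjamini-Hochberg adjusted p under 0.05, called from here on). Of all genes, the same test called 0.352% for WT, 0.363% for SapKO, 0.203% for ElkKO and 0.346% for ElkSapKO. At an unadjusted p under 0.05 there were 0, 0, 0 and 1 of 86 members, against 4.23%, 2.23%, 2.56% and 7.92% of all genes. The 1 member was Cdc73, an RNA polymerase cofactor (+0.50 in ElkSapKO, and +0.05 without the outlying array). Averaged over the 4 genotypes, which uses all 12 mice, the test called 1.45% of all genes and 0 members. There 1 member of 86, Cdca7, had an unadjusted p under 0.05, against 6.93% of all genes.

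The intervals of the averaged response were narrow. The 95% interval lay within 1.5-fold in either direction for 84 of the 86 members (97.7%, against 98% of all genes) and within 2-fold for all 86. The exceptions at 1.5-fold were Ccnd3 and Ccne2. A count of 0 calls therefore goes with changes that were small in most members, not only with wide errors.

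Most members were slightly lower after anti-CD3, although no single change passed the test. In the averaged response 60 of 86 (69.8%) were lower, with a median of −0.04 (log2), against 46.7% and a median of 0.01 over all genes. Without the outlying array 65 of 86 were lower, with a median of −0.08. Members were lower for 63 of 86 in WT, 70 in SapKO and 69 in ElkKO but for 39 in ElkSapKO, with medians of −0.07, −0.08, −0.09 and +0.05. Without the outlying untreated array of ElkSapKO mouse 2, 53 of 86 were lower in ElkSapKO and the median was −0.04. Differences between each knockout's response and that of WT called 0% of all genes and 0 members in SapKO, ElkKO and ElkSapKO alike. At an unadjusted p under 0.05 there were 0, 0 and 1 of 86 members, against 0.786%, 0.907% and 5.4% of all genes. These 3 comparisons share the WT arrays.

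By role, the mitotic kinases and Cdca genes had a median of −0.13 in the averaged response, with 8 of 10 lower. That of the licensing genes was −0.08 with 10 of 12 lower, and that of the centromere genes −0.07 with 16 of 20 lower. Without the outlying array these medians were −0.12, −0.08 and −0.13, so the classes have no fixed order. The 5 genes of the anaphase-promoting complex and its activator had a median of −0.06, the S, G2 and M cyclins with Cdk1 and its phosphatases −0.02 and the G1 cyclins and kinases −0.02. The E2f factors had a median of +0.04 with 5 of 8 higher. Without the outlying array the G1 class had a median of +0.07 and the E2f factors one of +0.05.

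Cdca7, a target of Myc and E2f that recruits chromatin remodelling, had the smallest p. Its untreated signals were 10.68, 10.41 and 10.21 in WT, 10.87, 10.73 and 10.77 in SapKO, 10.40, 10.34 and 10.70 in ElkKO and 10.22, 10.01 and 10.60 in ElkSapKO (mice 1 to 3). After anti-CD3 they were 10.38, 10.18 and 10.18 in WT, 10.55, 10.69 and 10.39 in SapKO, 10.11, 10.25 and 10.30 in ElkKO and 10.01, 10.19 and 10.22 in ElkSapKO. Thus 11 of 12 mice were lower, all but ElkSapKO mouse 2, while the ranges of the states overlapped in WT and ElkSapKO. The averaged difference of −0.21 ± 0.07 (SE) did not pass the limma test (adjusted p = 0.343).

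Ccnd3 had the largest positive change. Untreated signals were 10.98, 11.07 and 10.78 in WT, 11.16, 10.91 and 11.07 in SapKO, 11.01, 11.02 and 10.83 in ElkKO and 9.57, 10.90 and 10.86 in ElkSapKO. With anti-CD3 they were 11.28, 11.50 and 11.31 in WT, 11.60, 11.21 and 11.54 in SapKO, 11.26, 11.45 and 11.08 in ElkKO and 9.84, 10.31 and 11.33 in ElkSapKO. In each of the first 3 genotypes every stimulated array was above every untreated one, and of the ElkSapKO mice only mouse 2 went down. The averaged difference was +0.30 ± 0.15 (SE), or 1.23-fold, with a limma adjusted p of 0.766. Modelling the mouse as a replicate block brought the limma adjusted p to 0.103. Averaging the 3 probe sets of Ccnd3, or weighting arrays by quality, called it, so the averaged response of Ccnd3 depends on those choices.

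Cdca2, which targets a phosphatase to chromosomes, and Cenpa were lower after anti-CD3 in all 12 mice, by amounts that reached 0.00 at the smallest. The changes of Cenpa were −0.14, −0.02 and −0.28 in WT, −0.02, −0.14 and −0.06 in SapKO, −0.01, −0.45 and −0.35 in ElkKO and −0.08, −0.00 and −0.21 in ElkSapKO. Their averaged differences were −0.17 ± 0.09 and −0.15 ± 0.08 (SE), with limma adjusted p values of 0.843 and 0.874. A further 11 members were lower in 11 of 12 mice: Ccnb2, Cdc23, Cdc7, Cdca3, Cdca5, Cdca7, Cdca8, Cdk2, Cdk9, Cenpo and Cenpx. How often all genes had such signs was not counted. These counts also rest on the mouse numbers, whose pairing is less certain for ElkKO mice 1 and 2. Cdca2 lay at 8.07 in the untreated array of ElkKO mouse 2 and at 8.14 in the anti-CD3 array of ElkKO mouse 1. Cdca5, the cohesion protein sororin, had the smallest limma adjusted p in the fit with mouse as a block, 0.0851 for a difference of −0.21. Cdc23, a subunit of the anaphase-promoting complex, changed by −0.21 in the averaged response and by −0.32 (limma adjusted p = 0.0448) without the outlying array.

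Other genes of these pathways, from lists of known replication, nucleotide supply, mitosis and cell cycle inhibitor genes, gave the same direction. Of 93 such genes 84 were lower in the averaged response, with a median of −0.07. Within them, 30 of 33 replication machinery genes, 28 of 30 mitosis genes, 7 of 8 nucleotide supply genes and 19 of 22 inhibitors and pocket proteins were lower. Called among the 93 genes were 2, against 1.45% of all genes. Both were subunits of the origin recognition complex, and both were lower. Orc1, the subunit whose level varies most with the cycle, fell by 0.61 (difference −0.61 ± 0.11 SE, limma adjusted p = 0.00167), and Orc5 fell by 0.36 (−0.36 ± 0.08 SE, limma adjusted p = 0.0189).

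The fall of Orc1 was visible in the arrays. Its WT signals were 7.25, 7.77 and 7.77 untreated and 6.677, 6.825 and 7.002 with anti-CD3. In SapKO they were 7.56, 7.68 and 8.12 untreated and 6.91, 6.85 and 7.27 with anti-CD3, and in ElkKO 8.23, 7.72 and 8.37 against 7.44, 7.68 and 7.58. In these 3 genotypes the states did not overlap. In ElkSapKO the untreated values of 8.71, 7.92 and 8.49 overlapped the anti-CD3 values of 8.24, 8.09 and 7.66, but only through 7.92, the outlying array. None of the licensing members that act with Orc1 in loading the helicase was called in this comparison.

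**Figure D2:**
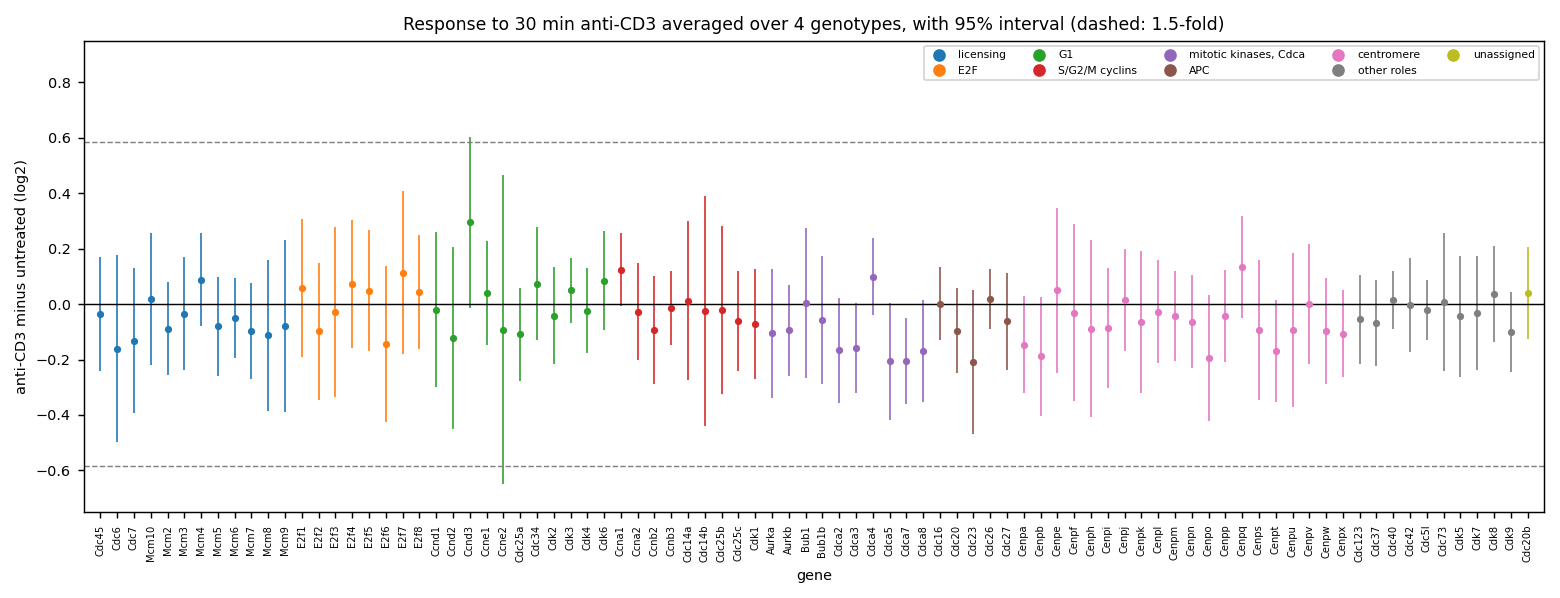
Difference between anti-CD3 and untreated arrays (log2, averaged over the 4 genotypes, 12 mice) for each of the 86 genes, coloured by role class; bars are limma 95% intervals and dashed lines mark 1.5-fold. Points range from −0.21 for Cdc23 to +0.30 for Ccnd3, and the intervals of Ccnd3 and Ccne2 cross a dashed line.

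Loss of Sap-1 moved none of the 86 genes past the test. The limma test of SapKO against WT called 0.0824% of all genes in untreated cells, 0.0715% with anti-CD3 and 0.126% in a fit on the mean of both arrays of each mouse, and 0 members in each. At an unadjusted p under 0.05 there were 4, 3 and 4 members, or 4.65%, 3.49% and 4.65%, against 1.65%, 2.97% and 2.28% of all genes. In mouse means 38 members were higher and 48 lower, with a median of −0.01. The interval lay within 1.5-fold for 69 of the 86 (80.2%, against 91.8% of all genes). The largest differences were +0.37 for Cenpn, an inner centromere protein, and −0.47 for E2f7, a repressing E2f, each with an adjusted p of 1 by limma.

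In ElkKO mice 1 member was called. Cenpt, which bridges centromeric DNA and the microtubule-binding kinetochore, was lower than in WT with anti-CD3 and in mouse means. The share of all genes called was 0.0989% in untreated cells, 0.22% with anti-CD3 and 0.412% in mouse means, and the members called were 0, 1 and 1 of 86. At an unadjusted p under 0.05 there were 7, 6 and 11 members, or 8.14%, 6.98% and 12.8%, against 7.21%, 11.4% and 12.3% of all genes.

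Cenpt (1 probe set) had WT signals of 8.57, 8.62 and 8.25 untreated and 8.37, 8.46 and 8.33 with anti-CD3. In SapKO they were 8.43, 8.34 and 8.48 untreated and 8.36, 8.32 and 8.24 with anti-CD3. The SapKO arrays thus lay close to WT. ElkKO gave 7.46, 7.46 and 8.01 untreated and 7.54, 7.30 and 7.76 with anti-CD3. ElkSapKO gave 7.45, 8.00 and 7.94 untreated and 7.16, 7.37 and 7.79 with anti-CD3. Every array that lacked Elk-1 was below every array that had it, in both states.

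The ElkKO difference in Cenpt was −0.84 ± 0.18 (SE) untreated (limma adjusted p = 0.0837), −0.86 ± 0.18 with anti-CD3 (limma adjusted p = 0.0434) and −0.85 ± 0.15 in mouse means, 1.80-fold lower (limma adjusted p = 0.0371). Against WT mouse 3 alone, the WT mouse with the same dap level, the ElkKO mean was lower by a difference of −0.70. With the dap level as a block the mouse-mean difference was −0.76 and was no longer called (limma adjusted p = 0.473), and leaving out any of the ElkKO or WT anti-CD3 arrays ended the call in that state, which was kept in 12 of 31 alternatives. Actb 3′ to 5′ differences were also higher in these mice, and their part in the result was not tested.

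Of the licensing genes, 11 of 12 were higher in ElkKO than in WT mouse means, with a median of +0.19, against −0.02 over all genes, and none was called. Against WT mouse 3 alone, at the same dap level, 6 of 12 were higher, with a median of −0.03. In mouse means Cdc6, the helicase loader, differed from WT by +0.47, Mcm9 by +0.40 and Mcm3 by +0.37. Cdc7, the kinase that fires origins, was the exception there at −0.15. Against WT mouse 3 alone Cdc6 differed by −0.10, Mcm9 by +0.01, Mcm3 by +0.07 and Cdc7 by −0.20. In mouse means the 8 nucleotide supply genes were all higher (median +0.14) and 22 of 33 replication machinery genes were higher (median +0.14), again with none called. These lists were not compared with WT mouse 3 alone.

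Mitotic classes differed among themselves in the same animals. Of the 10 mitotic kinases and Cdca genes 8 were lower, with a median of −0.13, among them Aurka at −0.42, Aurkb at −0.37 and the checkpoint kinase Bub1b at −0.39. Against WT mouse 3 alone 6 of these 10 were higher, with a median of +0.03, and Aurka differed by +0.09. Of the 20 centromere genes 12 were higher in mouse means, with a median of +0.05. Of 30 further mitosis genes 23 were lower, with a median of −0.24. Cdk1, the kinase that starts mitosis, differed by −0.28. The S, G2 and M class as a whole was lower for 7 of 9, with a median of −0.08. Against WT mouse 3 alone Cdk1 differed by +0.02, and 5 of these 9 were higher, with a median of +0.01. Of the 20 centromere genes 8 were then higher, with a median of −0.03. The 30 further mitosis genes were not compared with WT mouse 3 alone. Apart from Cenpt, none of these genes was called.

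Mice of each genotype differed widely. Relative to each gene's median over all arrays, the licensing genes had a median deviation of +0.44 in the untreated array of ElkKO mouse 3 and +0.26 in its anti-CD3 array, the highest values of any mouse in the untreated and anti-CD3 states, respectively. WT mouse 2 had −0.25 in its untreated array. The 10 mitotic kinase and Cdca genes were at +0.29 in the untreated array of WT mouse 1. Mice of 1 genotype thus lay as far apart as the median differences between genotypes.

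**Figure D3:**
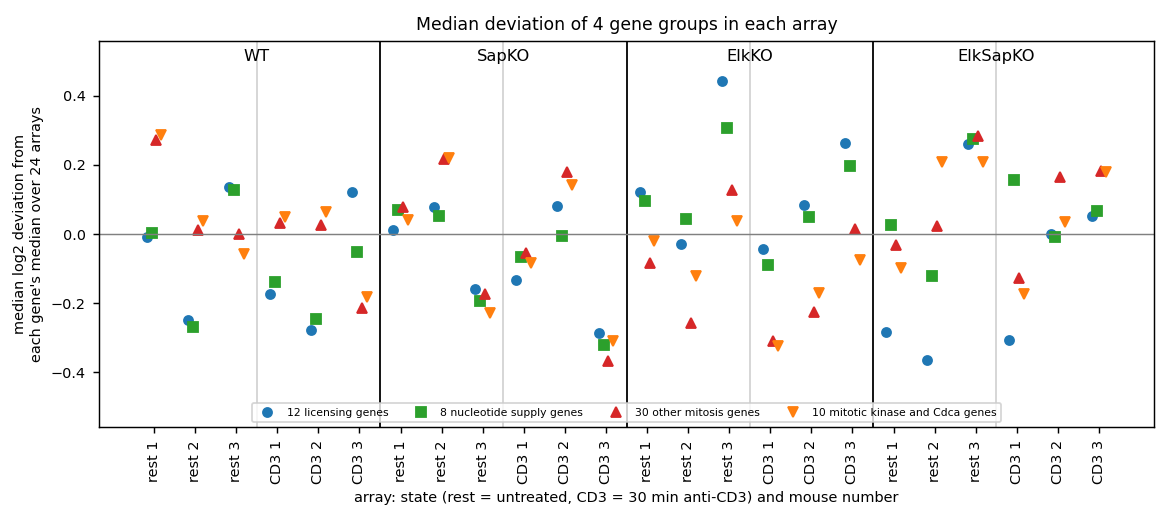
Median deviation of 4 gene groups in each of the 24 arrays from each gene's median over all arrays (log2), by genotype, state and mouse. The licensing genes reach +0.44 in the untreated array of ElkKO mouse 3, and mice of the same genotype lie far apart.

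Loss of both factors went with the most calls. ElkSapKO against WT called 3.44% of all genes in untreated cells, 6.83% with anti-CD3 and 7.9% in mouse means. Members called were 3 of 86 untreated (E2f5 up, E2f4 and Cenpt down), 7 of 86 with anti-CD3 (E2f5 and Cdc20 up, Cenpt, E2f4, Cdc34, Cdc37 and Cenpb down) and 6 of 86 in mouse means (E2f5 up, Cenpt, E2f4, Cdc34, Cdc37 and Cdk5 down). At an unadjusted p under 0.05 there were 16, 17 and 18 members, or 18.6%, 19.8% and 20.9%, against 23.4%, 21.5% and 25.2% of all genes. The members' share was near that of all genes, so these counts say nothing particular about cell cycle genes. The comparisons share the WT arrays with those of SapKO and ElkKO.

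Cenpt fell in ElkSapKO as in ElkKO, in the arrays listed above. Its difference was −0.69 ± 0.18 (SE) untreated (limma adjusted p = 0.0364), −0.95 ± 0.18 with anti-CD3, 1.93-fold lower (limma adjusted p = 0.0046), and −0.82 ± 0.15 in mouse means (limma adjusted p = 0.0112). Of all the calls among members, that of Cenpt with anti-CD3 was the one kept in each of the 32 alternatives run for it, with limma adjusted p values up to 0.0472. In mouse means and untreated cells the dap block ended its call, at limma adjusted p values of 0.143 and 0.15.

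E2f4 fell, and its close relative E2f5 rose on 1 of 3 probe sets. E2f4 (1 probe set), which with pocket proteins represses cell cycle genes in resting cells, had WT signals of 7.82, 8.32 and 7.73 untreated and 7.76, 7.98 and 8.48 with anti-CD3. In ElkSapKO these were 7.01, 7.19 and 7.08 untreated and 7.26, 7.28 and 7.13 with anti-CD3. SapKO lay with WT, at 7.94, 8.01 and 8.20 untreated and 8.30, 7.78 and 8.13 with anti-CD3. ElkKO was between, at 7.55, 7.72 and 7.23 untreated and 7.63, 8.02 and 6.96 with anti-CD3. All ElkSapKO arrays were below all WT arrays. ElkKO overlapped WT with anti-CD3, through 8.02 in mouse 2, but not in untreated cells.

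E2f4 in ElkSapKO differed from WT by −0.87 ± 0.22 (SE) untreated (limma adjusted p = 0.0359), −0.85 ± 0.22 with anti-CD3 (limma adjusted p = 0.026) and −0.86 ± 0.17 in mouse means, 1.81-fold lower (limma adjusted p = 0.0134). In ElkKO mouse means it differed by −0.49 ± 0.17 (limma adjusted p = 0.23). Against WT mouse 3 alone the ElkSapKO difference was −0.94. The dap block left the mouse-mean difference at −0.82 and ended the call (limma adjusted p = 0.143), as did leaving out WT mouse 2 (limma adjusted p = 0.0686).

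E2f5, also a repressor that acts with pocket proteins, was higher on its brightest probe set. WT signals were 8.04, 8.17 and 8.06 untreated and 8.35, 7.95 and 8.36 with anti-CD3, and SapKO signals 8.07, 8.07 and 7.95 untreated and 8.13, 8.18 and 8.47 with anti-CD3. ElkKO gave 8.72, 8.44 and 8.59 untreated and 8.67, 8.80 and 8.67 with anti-CD3. ElkSapKO gave 9.59, 9.59 and 8.57 untreated and 9.37, 8.69 and 8.79 with anti-CD3. All ElkSapKO arrays and all but 1 ElkKO array, the untreated array of mouse 2, were above all SapKO and WT arrays.

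E2f5 in ElkSapKO differed by +1.16 ± 0.21 (SE) untreated, 2.23-fold higher (limma adjusted p = 0.00589), +0.73 ± 0.21 with anti-CD3 (limma adjusted p = 0.0397) and +0.94 ± 0.15 in mouse means (limma adjusted p = 0.00604). In ElkKO mouse means it differed by +0.49 ± 0.15 (limma adjusted p = 0.196). The other probe sets of E2f5 did not show this. They had mean signals of 5.47 and 4.49, near background, and ElkSapKO differences of +0.04 and −0.36. With the probe sets averaged the mouse-mean difference was +0.21 and was not called (limma adjusted p = 0.261).

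The other members of the E2f family were not called in any comparison. In ElkSapKO mouse means E2f1, which activates replication genes, differed by −0.22, E2f2 by −0.18, E2f3 by +0.12, E2f6 by −0.20, E2f7 by −0.12 and E2f8 by −0.16. Against WT mouse 3 alone these differences were −0.62, −0.38, −0.42, −0.49, −0.55 and −0.33, in the same order. The licensing genes, of which many carry the E2f letters shown above, had 5 of 12 higher and 7 lower with a median of −0.04, and none was called. Without mouse 2, 7 of 12 were higher, with a median of +0.10. Against WT mouse 3 alone 1 of 12 was higher, with a median of −0.24. In untreated cells 3 of 12 were higher (median −0.12, or +0.03 with 7 of 12 higher without the outlying array), and with anti-CD3 8 of 12 (median +0.13).

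Cdc34, the ubiquitin-conjugating enzyme that serves the destruction of G1 inhibitors, was lower in stimulated ElkSapKO cells. Its WT signals were 8.74, 9.02 and 8.61 untreated and 9.17, 9.15 and 9.06 with anti-CD3. ElkSapKO gave 8.01, 9.05 and 8.48 untreated and 7.96, 8.23 and 8.59 with anti-CD3. SapKO lay between 8.68 and 9.06 and ElkKO between 8.66 and 9.02 over both states. With anti-CD3 ElkSapKO and WT did not overlap, but untreated they did, through 9.05, the outlying array. The difference was −0.87 ± 0.20 (SE) with anti-CD3, 1.83-fold lower (limma adjusted p = 0.0133), and −0.28 ± 0.20 untreated (limma adjusted p = 0.375). The difference between these responses was −0.59 ± 0.28 and did not pass the test (limma adjusted p = 0.703). Without the outlying array the untreated difference of Cdc34 was −0.55 (limma adjusted p = 0.0772) and the difference between responses −0.32 (limma adjusted p = 1).

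Cdc37 and Cdk5, whose main roles lie outside the cycle, fell too. Cdc37, which brings kinases to Hsp90, had WT signals of 10.60, 10.54 and 10.42 untreated and 10.64, 10.56 and 10.34 with anti-CD3, and ElkSapKO signals of 9.76, 10.37 and 10.15 untreated and 9.76, 9.81 and 10.07 with anti-CD3. ElkKO lay between, from 10.01 to 10.46 over both states. The ElkSapKO and WT arrays did not overlap with anti-CD3, where the difference was −0.63 ± 0.15 (SE, limma adjusted p = 0.016). That call was kept in 26 of 32 alternatives, with limma adjusted p values up to 0.106. It was lost in 4 of 7 that left out arrays compared, under the dap block and with only the compared arrays fitted. The second probe set of Cdc37 differed by −0.83 in mouse means.

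Cdk5, a kinase best known from neurons, had WT signals of 7.64, 7.67 and 7.77 untreated and 7.65, 7.84 and 7.62 with anti-CD3. ElkKO gave 6.99, 7.17 and 7.42 untreated and 7.24, 6.90 and 7.27 with anti-CD3, all below WT. ElkSapKO gave 6.83, 6.65 and 7.68 untreated and 6.66, 6.94 and 7.50 with anti-CD3, with mouse 3 near or within the WT range. The mouse-mean difference was −0.65 ± 0.18 (SE, limma adjusted p = 0.0414) in ElkSapKO and −0.54 ± 0.18 (limma adjusted p = 0.223) in ElkKO. Its other probe sets, with mean signals of 5.20 and 4.57, differed by 0.00 and +0.06 in ElkSapKO. The ElkSapKO call was kept in 5 of 18 alternatives and was lost with the probe sets averaged.

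Cdc20, the activator of the anaphase-promoting complex, was higher in stimulated ElkSapKO cells. WT signals were 10.64, 10.56 and 10.29 untreated and 10.42, 10.48 and 10.03 with anti-CD3, against 10.92, 10.81 and 10.81 untreated and 10.73, 10.91 and 10.85 with anti-CD3 in ElkSapKO. SapKO ranged from 10.27 to 10.83 and ElkKO from 10.09 to 10.30. All ElkSapKO arrays were above all WT arrays, yet they overlapped SapKO. The difference with anti-CD3 was +0.52 ± 0.15 (SE, limma adjusted p = 0.0375), and leaving out any of the 6 arrays compared ended the call. The other probe sets of Cdc20 differed by −0.06 and +0.11 in mouse means, and with the probe sets averaged the anti-CD3 difference was +0.16 (limma adjusted p = 0.635).

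Cenpb, which binds satellite DNA of centromeres, was lower in stimulated ElkSapKO cells. WT signals were 7.09, 7.25 and 7.48 untreated and 6.98, 7.34 and 7.39 with anti-CD3, and SapKO lay between 7.10 and 7.39. ElkKO gave 7.59, 7.96 and 7.71 untreated and 7.82, 7.52 and 7.46 with anti-CD3. ElkSapKO gave 6.38, 7.29 and 7.21 untreated and 6.41, 6.29 and 6.95 with anti-CD3. The ElkSapKO difference with anti-CD3 was −0.68 ± 0.20 (SE, limma adjusted p = 0.0474), with no overlap with WT, and untreated it was −0.31 ± 0.20 (limma adjusted p = 0.341). The ElkKO difference in mouse means was +0.42 ± 0.16 (limma adjusted p = 0.267). The second probe set of Cenpb, near background at a mean of 4.09, differed by −0.51 in ElkKO and −0.50 in ElkSapKO, so the probe sets disagree for ElkKO. The ElkSapKO call was kept in 8 of 32 alternatives.

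**Figure D4:**
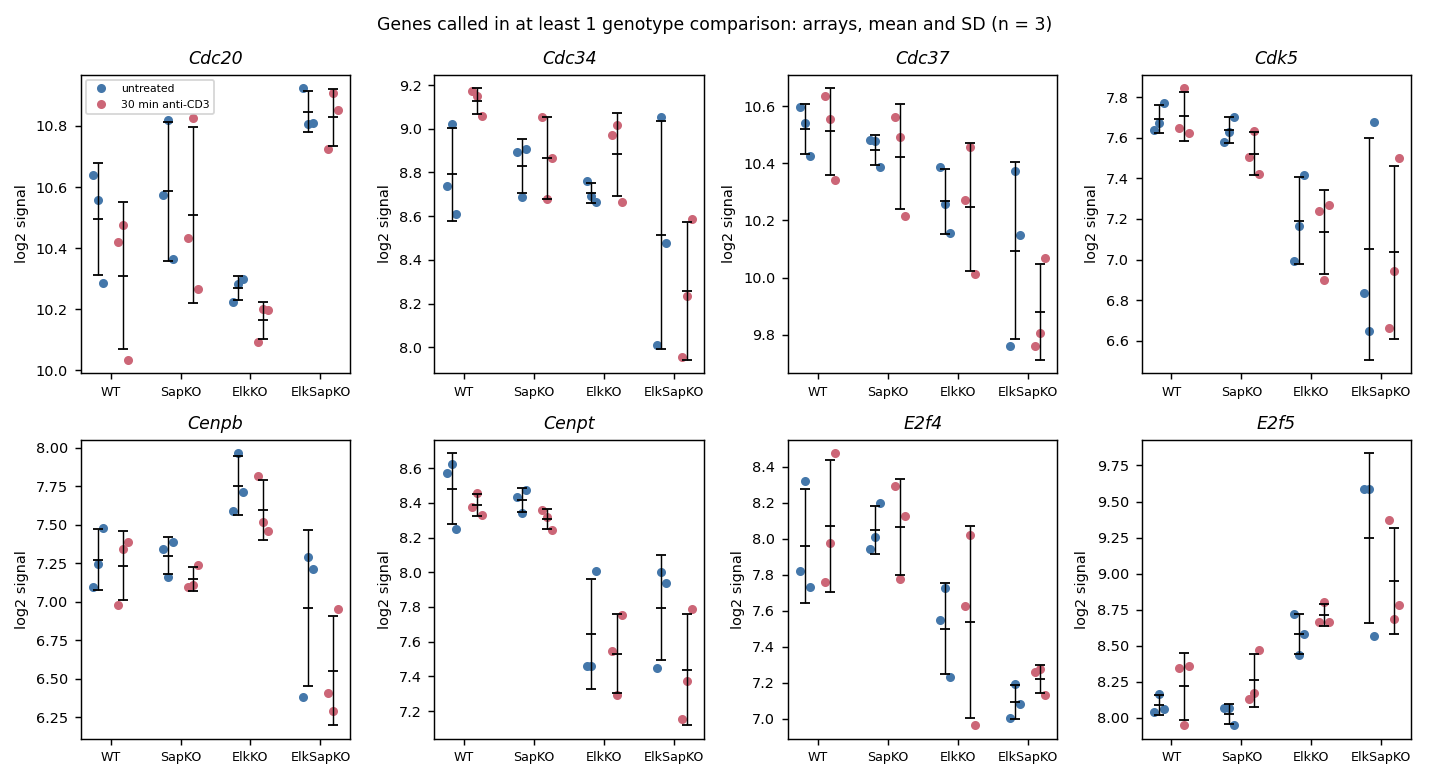
Log2 signal in each array for the 8 genes called in at least 1 genotype comparison, by genotype and state; the black mark is the mean and the bar the SD of 3 mice. Cenpt is lower in ElkKO and ElkSapKO, E2f4 lies lowest in ElkSapKO, and E2f5 lies highest in ElkSapKO.

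Of the 78 members outside the 8 called genes, 37 were higher and 41 lower in ElkSapKO mouse means, with a median of −0.02. Over all 86 the median was −0.03, against +0.03 over all genes. Without mouse 2 the median of the 86 was +0.01, with 48 higher, against −0.02 over all genes. Centromere genes were higher for 16 of 20, with a median of +0.11, among them Cenpk (+0.46) and Cenpe (+0.45), neither of them called. Without mouse 2 the count was again 16 of 20 and the median +0.22. Against WT mouse 3 alone, the WT mouse at the same dap level, 10 of 20 were higher, with a median of +0.05. The 10 members with main roles outside the cycle were lower for 9 of 10, with a median of −0.16, and for 6 of 10, with a median of −0.05, without mouse 2. Calls also moved with the outlying array. Without that array 5 members were called in untreated cells, Ccnd2 joining with a difference of −0.96 (limma adjusted p = 0.0432), and 12 with anti-CD3. Mouse 3 moved the counts in the same way: without its untreated array 13 members were called in untreated cells, and without the mouse 15 in mouse means. In mouse means without mouse 3, 3685 of all 18193 genes were called. Calls over all genes also moved widely among the alternatives run, from 626 to between 2 and 5860 in untreated cells. With anti-CD3 they moved from 1242 to between 169 and 3955. The members' counts without single arrays therefore say nothing particular about cell cycle genes.

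Among the other pathway genes, 4 rose in ElkSapKO mouse means: Orc1 (+0.97, limma adjusted p = 0.00702), the flap endonuclease Fen1 (+0.59, limma adjusted p = 0.0274), the licensing inhibitor Gmnn (+0.45, limma adjusted p = 0.0416) and Tyms, which makes thymidylate (+0.53, limma adjusted p = 0.0325). The pocket protein Rbl2, a partner of E2f4, fell in untreated cells (−0.61, limma adjusted p = 0.0437), with a difference of −0.39 without the outlying array, and the inhibitor Cdkn1c fell with anti-CD3 (−0.67, limma adjusted p = 0.0494). In mouse means 4 of the 93 genes were called, against 7.9% of all genes, and 54 were higher and 39 lower. Untreated, and again with anti-CD3, 2 were called up and 1 down, against 3.44% and 6.83% of all genes.

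Markers of thymocyte stages also differed in ElkSapKO. Of the 7 measured markers of mature single-positive T cells 5 fell in mouse means (Klf2, S1pr1, Ccr7, Il7r and Cd6), with a median of −0.79 over the 7 and array means of 6.21 to 6.73 against 7.07 to 7.74 in WT. Zbtb7b, not called, was the 1 mature marker that was higher. Of the 8 double-positive markers 3 fell (Cd4, Cd8a and Cd3e). Il7r also stands on the list of 8 double-negative markers, of which 4 were higher and 4 lower. In that list Cd44 rose (+0.74, limma adjusted p = 0.0225) and Il7r fell (−1.26, limma adjusted p = 0.0112). This comparison called 7.9% of all genes. In ElkKO no gene of these lists was called. The part of these markers, of Actb 3′ to 5′ differences and of the dap level in the ElkSapKO results was not tested beyond the dap block, under which 1, 1 and 0 members were called in untreated cells, with anti-CD3 and in mouse means.

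**Figure D5:**
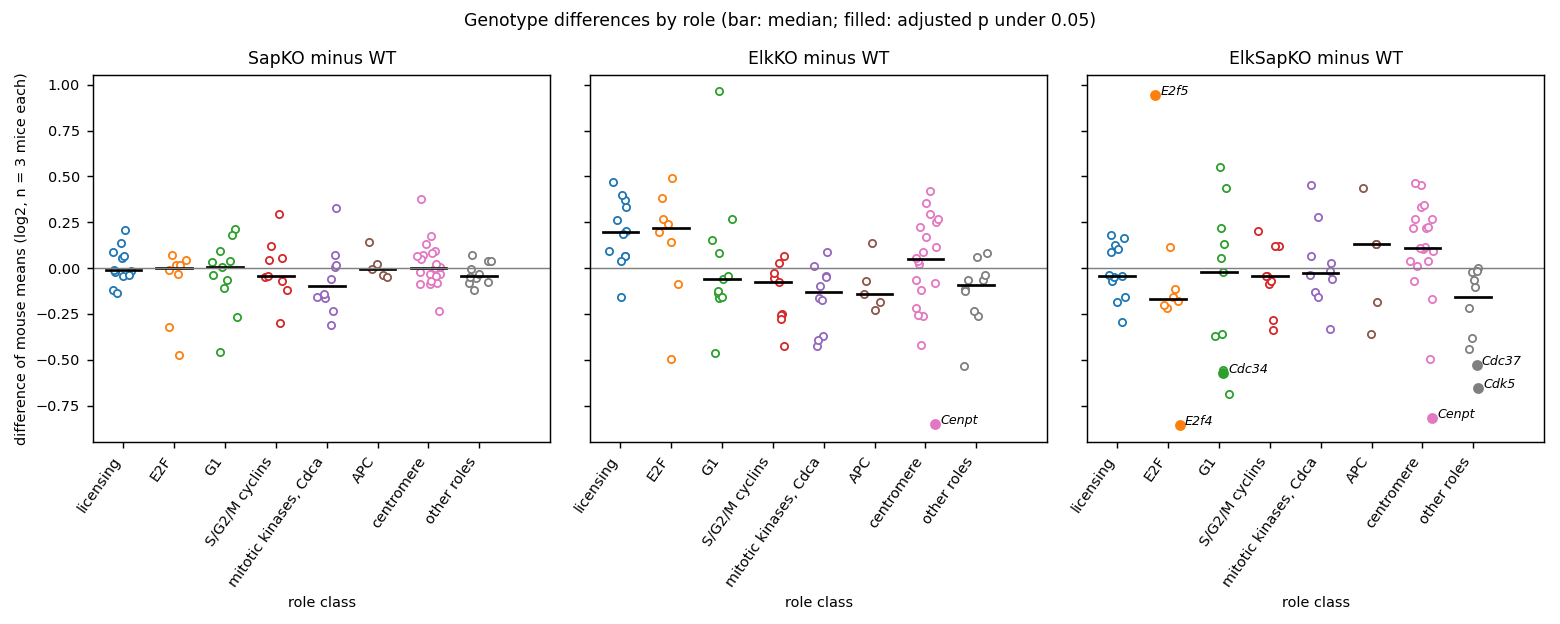
Difference of mouse means between each knockout and WT (log2, 3 mice against 3) for 85 of the 86 genes by role class (Cdc20b, of no class, is left out); bars are class medians and filled points have an adjusted p under 0.05. SapKO points cluster near 0, ElkKO has Cenpt as its single filled point, and ElkSapKO has 6.

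Some members varied widely between mice. Ccne2, a cyclin of S phase entry, had the largest SD over the 12 mouse means, 0.63. Its WT signals were 7.66, 7.02 and 8.53 untreated and 6.69, 6.96 and 8.32 with anti-CD3, and its ElkKO signals 8.41, 8.41 and 9.13 untreated and 7.98, 7.98 and 9.06 with anti-CD3. SapKO gave 7.92, 8.08 and 7.65 untreated and 7.32, 7.98 and 7.50 with anti-CD3. ElkSapKO gave 8.56, 6.02 and 8.69 untreated, the low value being the outlying array, and 8.59, 8.63 and 7.98 with anti-CD3. WT mouse 3 lay with the ElkKO mice, so that the mean ElkKO difference of +0.97 ± 0.38 (SE, limma adjusted p = 0.308) became +0.07 for Ccne2 against WT mouse 3 alone.

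The mitotic motor protein Cenpe and the kinetochore protein Cenpf followed, with Ccnd3, Cenpt, E2f5 and E2f4 described above. Mouse means of Cenpe ran from 7.74 in ElkKO mouse 2 to 9.32 in ElkSapKO mouse 3 (SD 0.46), and those of Cenpf from 8.04 to 9.54 in the same animals (SD 0.41). Those of Cdc6 ran from 8.17 in SapKO mouse 3 to 9.44 in ElkKO mouse 3 (SD 0.40), and those of E2f7 from 6.83 to 8.23 in the same animals (SD 0.41). Cdc14b, a phosphatase of mitotic exit, ran from 5.32 to 6.65, both in ElkSapKO mice, the lower through the outlying array, at 4.56 for Cdc14b against 6.07 in the anti-CD3 array of that mouse. None of Cenpe, Cenpf, Cdc6, E2f7 and Cdc14b was called in any comparison.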

How the data were processed

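The values are log2 signals that the authors deposited, made with RMA and the affy package per the submitters' processing notes; RMA corrects background, quantile normalizes arrays and summarises probes. Versions and the build of the annotation: not given in the sources used here. Each array hybridised 1 mouse's RNA in 1 state. Quantile normalization gives all arrays nearly the same distribution, so a change shared by most genes would not be seen; precision is limited by the array number.

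Of 45101 probe sets, 34945 listed 1 gene, 932 several and 9160 none, and 64 control probe sets were left out. The brightest of a gene's probe sets was used, which gave 18193 genes and 86 members from 202 probe sets. The table of probe set genes came from the platform's annotation.

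Tests used limma (version 3.58.1, R 4.3.3), with a mean for each of 8 groups over 24 arrays, or for each of 4 genotypes over 12 mouse means, and Benjamini-Hochberg adjustment over all genes within a comparison. Errors are standard errors of limma. Scripts were tested on simulated data. Figures used matplotlib 3.10.9 in Python 3.11.15.

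The members and lists were chosen with earlier results of these data known. Named were members called in any comparison, those with the smallest p, the 10 brightest, the 10 with the largest SD over mouse means and the brightest of each role class; other members are named as examples, and 1 of the brightest is not reported here. Levels that no comparison turned on are given as ranges of group means. The window of Cenpt is printed although it holds no E2f letters, because the results turn on that gene.

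Mouse numbers in the labels pair the untreated and anti-CD3 arrays of an animal. After group means were removed, the 12 pairs correlated at −0.01 to 0.83 over 10100 genes, 10 of them above 0.1. ElkKO mice 1 and 2 correlated better across numbers (0.67 and 0.61), so the pairing there is less certain.

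Alternatives left out each array or mouse, weighted arrays, centred arrays on their median, averaged probe sets, filtered low signals, fitted only the groups compared, added mouse as a block, and added the dap level as a block. Added after the data were seen were WT mouse 3 as the sole WT animal and leaving out both arrays of ElkSapKO mouse 2.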

Additional observations from a re-analysis of the deposited data

How the results depend on the processing

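None of the 18 calls among members changed direction under the alternatives run. Counts of members called moved in some cases, and the cause was not tested. With array weights 2 were called in the ElkSapKO response, 4 in the averaged response, 4 in untreated ElkKO, 3 in ElkKO with anti-CD3, 17 in ElkKO mouse means, 28 in untreated ElkSapKO and 19 in ElkSapKO with anti-CD3. Over all 18193 genes the same weights called 696, 1091, 964, 931, 2963, 5860 and 3955 in those comparisons, in that order. With probe sets averaged there were 2 members in the averaged response, 0 in ElkKO with anti-CD3 and 6 in untreated ElkSapKO. With only the compared arrays fitted there were 0 and 3 in ElkKO with anti-CD3 and in mouse means, and 0, 2 and 1 in ElkSapKO untreated, with anti-CD3 and in mouse means. With the dap level as a block these 5 counts were 0, 0, 1, 1 and 0. Median centring gave 0 in ElkKO mouse means, and the low signal filter 5 in untreated ElkSapKO.

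Leaving out single arrays or mice gave 0 to 1 members in the averaged response, 0 to 1 in untreated ElkKO, 0 to 1 in ElkKO with anti-CD3, 0 to 3 in ElkKO mouse means, 1 to 13 in untreated ElkSapKO, 1 to 12 in ElkSapKO with anti-CD3 and 1 to 15 in ElkSapKO mouse means, and 0 in the remaining comparisons. The highest counts came without ElkSapKO mouse 3 or its untreated array (15 and 13) and, with anti-CD3, without its anti-CD3 array or the untreated array of mouse 2 (12 each). Without ElkSapKO mouse 3, 3685 of all 18193 genes were called in mouse means. The lowest member count with anti-CD3 (1) came without the anti-CD3 array of ElkSapKO mouse 1 or 2. In mouse means the lowest (1) came without WT mouse 2. Without both arrays of ElkSapKO mouse 2, 5 members were called in untreated cells.

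The fit with mouse as a replicate block, which pairs the arrays of an animal, called 0 members in the averaged response, and 1 (Cdca5) with the ElkKO numbers 1 and 2 exchanged. It changed no other count by more than 1.5 times.

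Over all genes the calls moved more: from 626 to between 2 (compared arrays only) and 5860 (array weights) in untreated ElkSapKO, from 1242 to between 169 and 3955 with anti-CD3, and from 1438 to between 41 (dap block) and 3685 in mouse means. In ElkKO they moved from 18 to between 3 and 964, from 40 to between 3 and 931, and from 75 to between 0 and 2963. In SapKO they moved from 15 to between 8 and 42, from 13 to between 8 and 47, and from 23 to between 11 and 87, and in the averaged response from 264 to between 216 and 1091.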
